A study of Mus musculus with 10 samples.

Results

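The BCL2 family members examined were 10 mouse genes, of 54532 genes counted, that encode proteins controlling the mitochondrial route to apoptosis. They were taken by gene name from a list chosen for their roles. No measured value set the choice, but earlier results of these data were known when it was made. The list holds the pro-survival genes Bcl2, Bcl2l1, Bcl2l2 and Mcl1, the effector Bak1, and the BH3-only genes Bcl2l11, Bid, Bad, Bik and Bmf. A further 13 genes of the family, Bax, Bbc3 and Pmaip1 among them, were described apart from these 10.

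Polyadenylated RNA of 10 libraries of strain 129SV was sequenced, with total counts from 15862113 to 18814003 per library. Epiblast stem cells (EpiSC), lines derived from the epiblast after implantation, gave 5 libraries. Of these, lines haEpi1 and haEpi5 were labelled haploid with P53 disrupted, 1 library was labelled diploid with P53 disrupted, and a female and a male library were labelled wild-type diploid. Epiblast-like cells (EpiLC), a transient state reached from embryonic stem cells in culture, gave 1 haploid library labelled p53-KO and 1 haploid library labelled wild type. Embryonic stem cells (ESC) gave 1 haploid and 1 diploid library, and mouse embryonic fibroblasts (MEF) gave 1 diploid library, all 3 labelled wild type. The libraries of a group were different lines or sexes, and a single library stood for several groups. A p-value therefore weighs a difference against the spread between these libraries. The single MEF library adds no spread of its own, so comparisons with MEF use that of the other cell types. In comparisons of cell types, EpiSC and EpiLC each mixed p53-KO with wild-type libraries, and EpiSC and ESC each mixed haploid with diploid ones. That spread then includes differences of p53 label and ploidy. No ESC or MEF library was labelled p53-KO, so cell type and p53 label were partly tied together.

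In this pathway the pro-survival proteins hold the effectors BAK and BAX in check at the outer mitochondrial membrane. BH3-only proteins, raised or activated by stress, bind the pro-survival proteins and free or activate the effectors, which then open the membrane, release cytochrome c and start the caspases. Pluripotent cells are known to be quick to enter this form of death, and p53 is known to raise several pro-death members after damage.

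The 250 bases before the annotated start site are given for 3 members. Bcl2 and Bcl2l11 are shown because they were the members that differed between EpiSC and ESC, and Mcl1 because it was the most abundant member in every library. The sequences are from RefSeq on GRCm38.p6, written 5′ to 3′ on the gene's strand, with capitals marking, on either strand, the GC box of letters GGGCGG and the core of a cAMP response element, of letters TGACGT.
Bcl2: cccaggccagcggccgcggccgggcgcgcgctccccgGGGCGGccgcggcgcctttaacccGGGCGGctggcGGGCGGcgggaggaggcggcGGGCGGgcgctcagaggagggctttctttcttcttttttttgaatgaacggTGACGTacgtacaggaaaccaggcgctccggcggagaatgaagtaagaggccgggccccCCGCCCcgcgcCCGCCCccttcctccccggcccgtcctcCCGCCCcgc
Bcl2l11: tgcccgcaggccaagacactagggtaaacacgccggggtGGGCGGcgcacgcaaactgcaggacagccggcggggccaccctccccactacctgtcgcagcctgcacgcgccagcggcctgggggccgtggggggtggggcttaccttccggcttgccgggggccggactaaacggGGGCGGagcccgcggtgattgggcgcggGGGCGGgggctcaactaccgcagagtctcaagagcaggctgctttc
Mcl1: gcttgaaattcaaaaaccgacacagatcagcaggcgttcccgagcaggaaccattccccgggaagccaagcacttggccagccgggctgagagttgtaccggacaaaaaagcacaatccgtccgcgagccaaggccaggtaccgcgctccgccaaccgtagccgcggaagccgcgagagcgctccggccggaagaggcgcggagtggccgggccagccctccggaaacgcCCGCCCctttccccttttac
The Bcl2 window lies at chr1:106714291-106714540 on the minus strand, the Bcl2l11 window at chr2:128125788-128126037 on the plus strand and the Mcl1 window at chr3:95658471-95658720 on the plus strand. The Bcl2 window held 7 GC boxes and 1 response element core, the Bcl2l11 window 3 GC boxes and the Mcl1 window 1 GC box. Of the 9 members matched to a window, 6 held a GC box and 1 held the response element core, against 32.7% and 6.47% of all 32851 windows of the same length. The box of letters CCAAT was found in 2 members and the forkhead core, of letters TGTTTAC, in 1 member, against 33.8% and 3.17% of all windows. The E-box of letters CACGTG, the TATA box of letters TATAAA and the p53 half-site were found in 0 of 9 members, against 6.02%, 12.4% and 7.13% of all windows. Both strands were searched and none of these motifs contains another, and a match is a description of letters only.

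The cell labels were set against marker genes. The summed level of 6 general pluripotency markers was 576 to 1321 FPKM in the 9 EpiSC, EpiLC and ESC libraries and 4.38 FPKM in MEF. FPKM is the level per gene length and a size constant of each library, and is used below for every level. The 8 naive markers summed to 4.01 to 37.1 FPKM in EpiSC, to 215.9 and 29.1 FPKM in p53-KO and wild-type EpiLC, and to 328 and 711 FPKM in haploid and diploid ESC. The 14 fibroblast markers summed to 0.7% to 2.83% of their MEF level in EpiSC, 0.217% and 0.0898% in the EpiLC libraries, and 1.75% and 0.0761% in haploid and diploid ESC. Trp53, the disrupted gene, was at 0.514 FPKM in diploid p53-KO EpiSC and at 8.0 to 14.8 FPKM in the other 3 libraries labelled p53-KO, against 7.14 to 93.4 FPKM in the 6 wild-type libraries. Its level therefore overlapped between the labels, with haEpi1 and haEpi5 above the female wild-type EpiSC and the haploid ESC library, and the p53 groups below are those of the labels. In bulk RNA, fewer cells of a type and less RNA per cell cannot be told apart.

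Among the pro-survival members, Bcl2 was nearly silent in ESC, low in EpiLC and clearly present in EpiSC and MEF. Bcl2, the founding member, which lies on chromosome 1 from 106538178 to 106714274 in mm10 (ENSMUSG00000057329), stood at 0.945, 1.03 and 1.08 FPKM in haEpi1, haEpi5 and diploid p53-KO EpiSC and at 1.15 and 2.51 FPKM in female and male wild-type EpiSC. It stood at 0.108 and 0.182 FPKM in p53-KO and wild-type EpiLC, at 0.0498 and 0.0137 FPKM in haploid and diploid ESC, and at 2.09 FPKM in MEF. The 5 EpiSC libraries were all above both EpiLC libraries, these were both above the ESC libraries, and MEF lay inside the EpiSC range. The counts behind these levels were 167 to 421 in EpiSC, 16 and 26 in EpiLC, 9 and 2 in ESC, and 290 in MEF, so the ESC level rests on few reads. By edgeR's quasi-likelihood test with Benjamini-Hochberg adjustment over all genes, Bcl2 was higher in EpiSC than in ESC by 5.39 ± 0.735 (log2 fold change ± SE, adjusted p = 0.00165). The size of that difference rests on the ESC libraries, at 6.54 without haploid ESC and 4.78 without diploid ESC. With wild-type libraries alone it was 5.86 and did not pass (adjusted p = 0.0745). Few genes passed there, 32 higher and 38 lower of 20636. Summed counts scaled by library size gave an EpiSC to ESC ratio of 41.6, with an exact binomial 95% interval of 23.2 to 83.7 that covers counting error only.

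**Figure D1:**
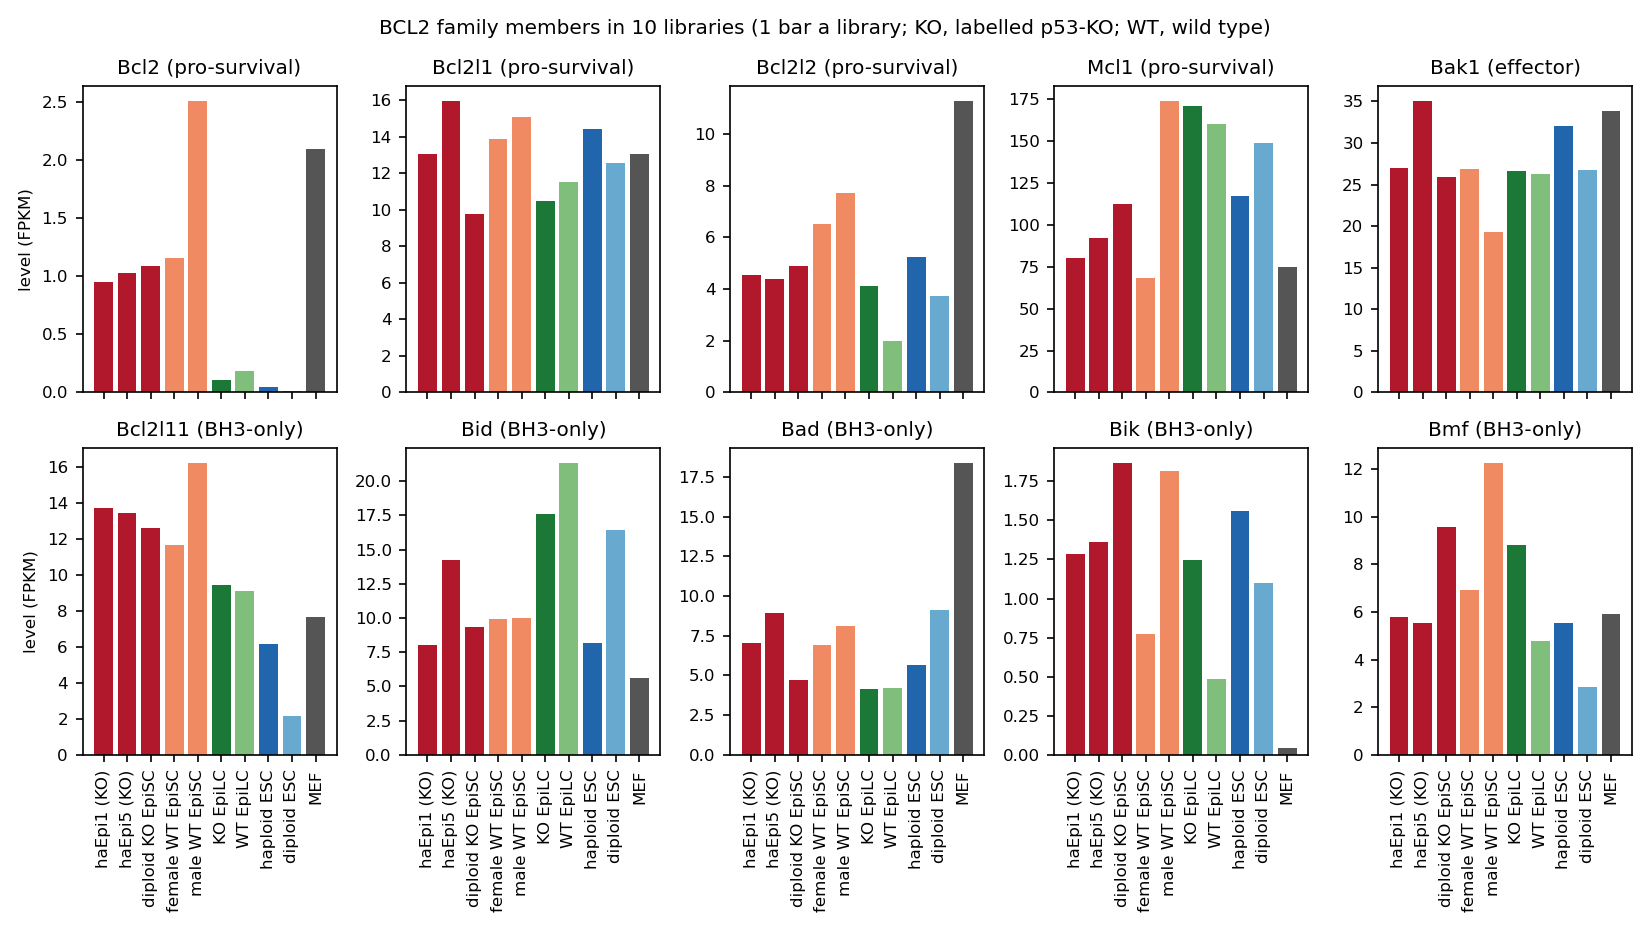
Level of each of the 10 BCL2 family members (y axis, FPKM, each panel with its own scale from 0) in each of the 10 libraries (x axis, 1 bar a library, no error bars). Bcl2 is at 0.945 to 2.51 FPKM in the 5 EpiSC libraries, at 0.0137 and 0.0498 FPKM in the ESC libraries and at 2.09 FPKM in MEF, while Bik is at 0.0416 FPKM in MEF.

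Bcl2 was also higher in EpiSC than in EpiLC, by 3.21 ± 0.629 on the log2 scale (adjusted p = 0.0147), with a count ratio of 9.48 (exact binomial 95% interval 6.96 to 13.2). That call did not hold without p53-KO EpiLC (2.92, adjusted p = 0.103) or without wild-type EpiLC (3.65, adjusted p = 0.0579), where 1 library is left on that side. It was also lost with wild-type libraries alone (3.38, adjusted p = 0.388), with limma on log2(FPKM + 1) without a filter (adjusted p = 0.0855) and without haEpi1 and haEpi5, an alternative chosen after seeing the data (3.45, adjusted p = 0.0538). EpiLC against ESC gave a Bcl2 difference of 2.18 ± 0.719 that did not pass (adjusted p = 0.23). ESC over MEF gave -5.95 ± 0.823 (adjusted p = 0.00273), at a count ratio of 0.0165 (0.00813 to 0.0299), and was -7.10 without haploid ESC and -5.32 without diploid ESC. EpiSC and MEF differed by -0.56 ± 0.637, within the spread between libraries (adjusted p = 0.61). The fibroblast marker sums, at the shares given above, moved with Bcl2 across some of these libraries. At the same share of the MEF level, Bcl2 would be 0.0147 to 0.0592 FPKM in the EpiSC libraries, whose own levels were 0.945 to 2.51 FPKM. The corresponding values were 0.0365 FPKM for haploid ESC, whose own level was 0.0498 FPKM, and 0.00159 FPKM for diploid ESC, whose own level was 0.0137 FPKM. This scaling takes the markers and Bcl2 to stand in the proportion of the single MEF library. The part of fibroblast RNA in the Bcl2 levels was not tested.

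Bcl2l1, which encodes BCL-XL, was the steadiest pro-survival member. It was at 13.1, 15.98, 9.75, 13.9 and 15.1 FPKM in haEpi1, haEpi5, diploid p53-KO, female and male EpiSC, at 10.5 and 11.5 FPKM in p53-KO and wild-type EpiLC, at 14.4 and 12.6 FPKM in haploid and diploid ESC, and at 13.0 FPKM in MEF. The cell types overlapped, with diploid p53-KO EpiSC the lowest library, and no Bcl2l1 difference between cell types passed the test (log2 fold changes of -0.26 to 0.31).

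Bcl2l2, which encodes BCL-W, was highest in fibroblasts. It was at 4.56, 4.39, 4.90, 6.52 and 7.73 FPKM in haEpi1, haEpi5, diploid p53-KO, female and male EpiSC, at 4.13 and 1.98 FPKM in p53-KO and wild-type EpiLC, at 5.23 and 3.72 FPKM in haploid and diploid ESC, and at 11.3 FPKM in MEF. MEF lay above every pluripotent library and wild-type EpiLC below every other library, but with 1 MEF library the difference of EpiSC from MEF (-0.93 ± 0.423, adjusted p = 0.174) and that of ESC from MEF (-1.30 ± 0.49, adjusted p = 0.0827) did not pass.

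Mcl1, a short-lived protein that restrains BAK and binds the BH3-only protein BIM, and that the early mouse embryo is known to need around implantation, had the highest level of the 10 members in every library. It was at 80.4, 92.3, 113, 68.1 and 174 FPKM in haEpi1, haEpi5, diploid p53-KO, female and male EpiSC, at 171 and 161 FPKM in p53-KO and wild-type EpiLC, at 117 and 149 FPKM in haploid and diploid ESC, and at 75.1 FPKM in MEF. Of the EpiSC libraries 4 lay below both ESC and both EpiLC libraries, whereas male EpiSC was the highest of all 10. With that spread the differences were -0.29 ± 0.337 for EpiSC over ESC (adjusted p = 0.596) and -0.64 ± 0.332 for EpiSC over EpiLC (adjusted p = 0.242).

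Bak1, the effector that forms pores in the outer mitochondrial membrane, was the second most abundant member in every library and varied little. Its gene, on chromosome 17 from 27019810 to 27029009, lies within Ggnbp1 on the other strand, which had 27 to 201 counts. Bak1 was at 27.0, 35.1, 25.9, 26.9 and 19.3 FPKM in haEpi1, haEpi5, diploid p53-KO, female and male EpiSC, at 26.6 and 26.2 FPKM in p53-KO and wild-type EpiLC, at 32.1 and 26.8 FPKM in haploid and diploid ESC, and at 33.8 FPKM in MEF. Male EpiSC, the highest library for Mcl1, was the lowest for Bak1, and the cell types otherwise overlapped. No Bak1 difference between cell types passed the test, with log2 fold changes of -0.25 to 0.03.

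Among the BH3-only members, Bcl2l11 followed the order of Bcl2 among the pluripotent cells. Bcl2l11 encodes BIM, which binds every pro-survival protein of the group and can also activate the effectors. It lies on chromosome 2 from 128126038 to 128162547 in mm10, and was at 13.7, 13.4, 12.6, 11.6 and 16.2 FPKM in haEpi1, haEpi5, diploid p53-KO, female and male EpiSC, at 9.44 and 9.09 FPKM in p53-KO and wild-type EpiLC, at 6.16 and 2.15 FPKM in haploid and diploid ESC, and at 7.64 FPKM in MEF. All 5 EpiSC libraries were above every other library, and both EpiLC libraries were above both ESC libraries. EpiSC exceeded ESC by 1.76 ± 0.354 on the log2 scale (edgeR adjusted p = 0.00956). The difference was 2.65 without haploid ESC and 1.18 without diploid ESC, both past the threshold, and 1.82 with wild-type libraries alone, where it did not pass (adjusted p = 0.185). EpiLC exceeded ESC by 1.21 ± 0.388, which did not pass (adjusted p = 0.219) but did without haploid ESC (2.09, adjusted p = 0.0315), and EpiSC exceeded EpiLC by 0.56 ± 0.329 (adjusted p = 0.301). At the fibroblast shares above, the MEF level would give 0.0535 to 0.216 FPKM of Bcl2l11 in EpiSC. Here too the part of fibroblast RNA was not tested.

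Bid, which caspase-8 cleaves to link death receptors to mitochondria, was highest in EpiLC. It was at 8.0, 14.3, 9.38, 9.94 and 10.02 FPKM in haEpi1, haEpi5, diploid p53-KO, female and male EpiSC, at 17.6 and 21.3 FPKM in p53-KO and wild-type EpiLC, at 8.20 and 16.4 FPKM in haploid and diploid ESC, and at 5.59 FPKM in MEF. Both EpiLC libraries were the highest and MEF the lowest, and EpiSC and ESC overlapped. The gene shares 913 bases with Bcl2l13 on the other strand, whose reads cannot be told apart there. The difference of EpiSC from EpiLC was -0.90 ± 0.307 on the log2 scale (adjusted p = 0.091). It passed without haploid ESC (adjusted p = 0.0411) or without diploid ESC (adjusted p = 0.0447), libraries that enter only through the shared spread.

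Bad, a sensitizer that binds BCL2, BCL-XL and BCL-W and is held inactive by phosphorylation, was highest in fibroblasts. It was at 7.05, 8.95, 4.74, 6.90 and 8.10 FPKM in haEpi1, haEpi5, diploid p53-KO, female and male EpiSC, at 4.13 and 4.18 FPKM in p53-KO and wild-type EpiLC, at 5.68 and 9.14 FPKM in haploid and diploid ESC, and at 18.4 FPKM in MEF. MEF stood above all 9 pluripotent libraries, among which the cell types overlapped except that both EpiLC libraries were lowest. The difference of EpiSC from MEF, -1.28 ± 0.391, missed the threshold with edgeR (adjusted p = 0.0537) and passed with DESeq2 (adjusted p = 0.0142) and limma on FPKM (adjusted p = 0.0265).

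Bik, on chromosome 15 from 83526862 to 83544634, which encodes a BH3-only protein of the endoplasmic reticulum, was present at a low level in the pluripotent libraries and had 1 count in MEF. It was at 1.28, 1.36, 1.87, 0.770 and 1.82 FPKM in haEpi1, haEpi5, diploid p53-KO, female and male EpiSC, at 1.24 and 0.483 FPKM in p53-KO and wild-type EpiLC, at 1.56 and 1.10 FPKM in haploid and diploid ESC, and at 0.0416 FPKM in MEF. All 9 pluripotent libraries were above MEF and overlapped among themselves. Bik was higher in EpiSC than in MEF (log2 fold change 5.03 ± 1.16, adjusted p = 0.0187) and higher in ESC than in MEF (4.89 ± 1.19, adjusted p = 0.019). Neither call held with wild-type libraries alone (4.86, adjusted p = 0.154, and 4.83, adjusted p = 0.0996) or with limma on log2(FPKM + 1) without a filter (adjusted p = 0.0662 and 0.0813), and that of EpiSC did not hold without haEpi1 and haEpi5 (5.09, adjusted p = 0.0562). Summed counts of 207 in EpiSC and 1 in MEF gave a ratio of 36.3 with a wide exact binomial interval of 6.45 to 1440, and those of 77 in ESC and 1 in MEF a ratio of 33.4 (5.83 to 1340).

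Bmf, which docks on the dynein light chain DYNLL2 until released, was at 5.78, 5.52, 9.56, 6.92 and 12.3 FPKM in haEpi1, haEpi5, diploid p53-KO, female and male EpiSC, at 8.82 and 4.795 FPKM in p53-KO and wild-type EpiLC, at 5.53 and 2.86 FPKM in haploid and diploid ESC, and at 5.93 FPKM in MEF. Male EpiSC was the highest and diploid ESC the lowest, and the haploid ESC library lay within the EpiSC range. The EpiSC to ESC difference of 0.99 ± 0.418 did not pass (adjusted p = 0.138).

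Counted by comparison, the share of members called was near that of all genes. For EpiSC over ESC 2 of 10 members were called, both higher, beside 16.9% of the 21104 genes tested (6.86% higher), and the members' median log2 fold change was 0.0958 against -0.0222 for all genes. For EpiSC over EpiLC 1 member was called, beside 9.65% of genes (3.77% higher), with medians of 0.433 for the members and 0.00695 for all genes. For EpiLC over ESC edgeR called 0 members, beside 0.426% of genes. Unadjusted p was under 0.05 for 2 members there (Bcl2 and Bcl2l11), beside 14.4% of all genes tested, and DESeq2 and limma called 0 as well. For EpiSC over MEF 1 member was called, beside 14.7% of genes (5.93% higher), with medians of 0.325 and 0.109. For ESC over MEF 1 member was higher and 1 lower, beside 21.3% of genes (9.36% higher and 12.0% lower), with medians of -0.319 for the members and 0.217 for all genes. These comparisons share libraries and are not independent of each other.

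**Figure D2:**
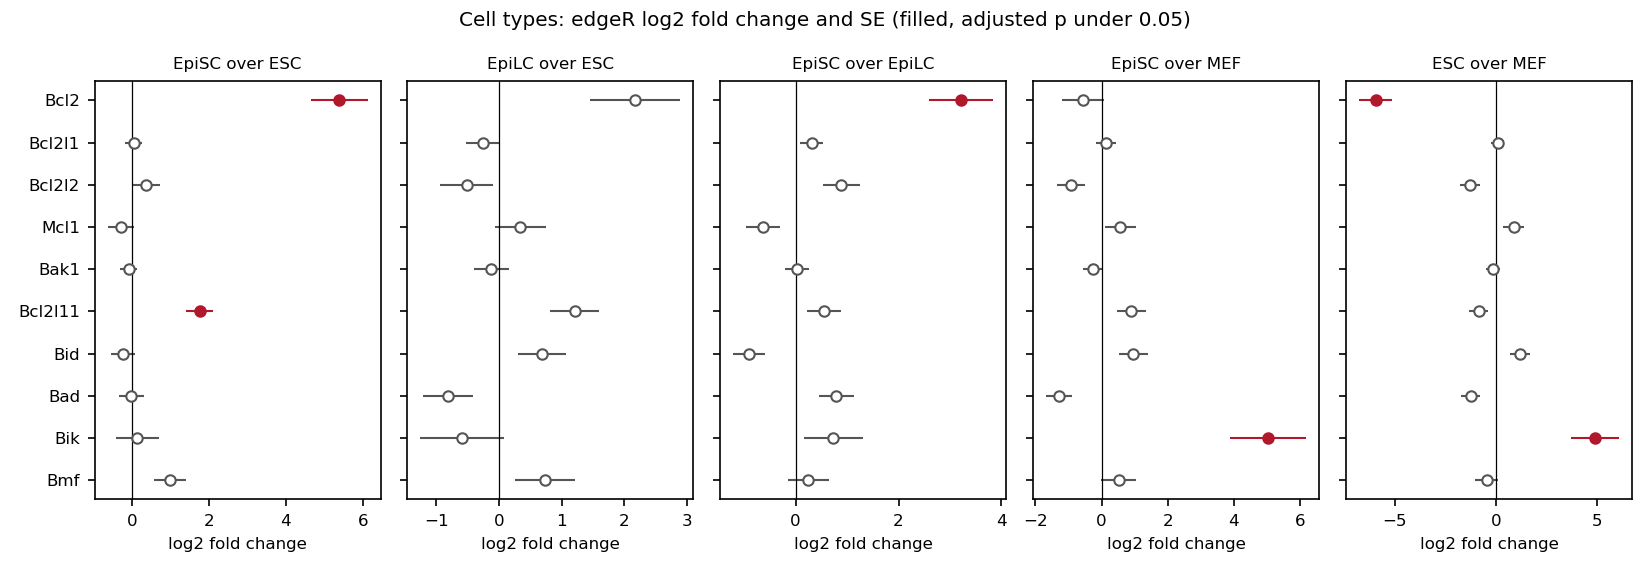
Log2 fold change (x axis, each panel with its own scale) of each member (rows) in the 5 cell type comparisons, with bars of 1 SE from edgeR's quasi-likelihood test and filled points for adjusted p under 0.05. Bcl2 and Bcl2l11 are filled for EpiSC over ESC, Bcl2 for EpiSC over EpiLC, Bik for EpiSC over MEF, and Bcl2 and Bik for ESC over MEF.

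The balance of the family was described as the summed FPKM of the 4 pro-survival members over that of the 6 pro-death members. Over these 10 genes the pro-survival sum exceeded the pro-death sum in every library, with Mcl1 as its main part. The ratio was 1.58, 1.45, 2.004, 1.42 and 2.95 in haEpi1, haEpi5, diploid p53-KO, female and male EpiSC, 2.73 and 2.64 in p53-KO and wild-type EpiLC, 2.31 and 2.82 in haploid and diploid ESC, and 1.42 in MEF. Of the EpiSC libraries 4 lay below every EpiLC and ESC library, while male EpiSC was above them all, so the cell types overlapped. On the log2 scale the ratio averaged 0.852 ± 0.443 in EpiSC (SD, n = 5) and 1.35 ± 0.205 in ESC (SD, n = 2), a difference of -0.50 that is about the size of the spread in EpiSC, and 1.42 ± 0.0368 in EpiLC (SD, n = 2). Mcl1 made up 74.0% to 92.2% of the pro-survival sum. Without Mcl1 the EpiSC minus ESC difference was -0.01, and as a mean of log2(FPKM + 0.1) over members, which gives Bcl2 equal weight, it was 0.41, so the direction depends on how members are weighted. The excess itself depends on which genes are summed. With the effector Bax, at 41.1 to 138.4 FPKM, added to the pro-death side, which was chosen after seeing the data, the ratio was 0.735 to 1.56 and lay under 1 in 6 of 10 libraries. Those were haEpi1, haEpi5, female EpiSC, wild-type EpiLC, diploid ESC and MEF. With 9 other family genes added to their sides, Bax included, it was 0.524 to 1.14 and under 1 in 9 of 10 libraries. The measure adds mRNA levels and holds no protein level.

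**Figure D3:**
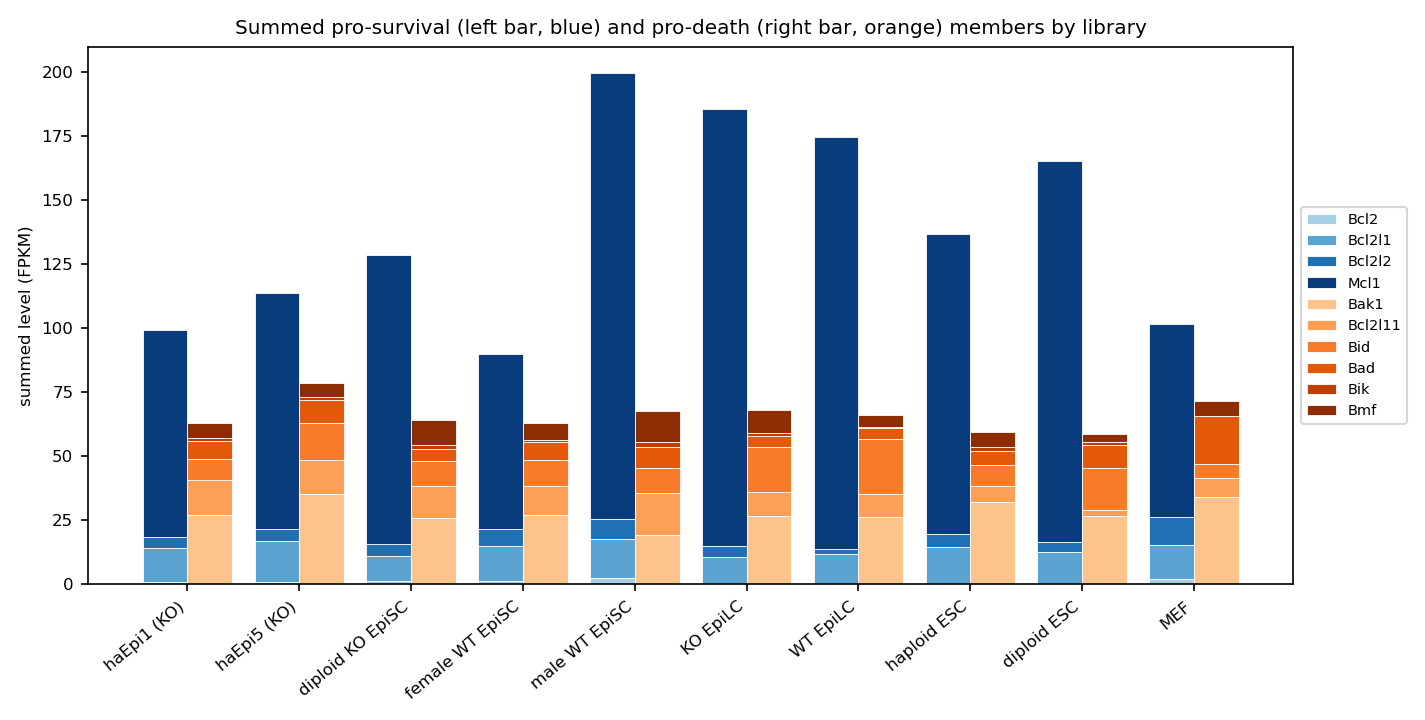
Summed level (y axis, FPKM, from 0) of the 4 pro-survival members (left bar, blue) and the 6 pro-death members (right bar, orange) in each of the 10 libraries (x axis), split by member. Mcl1 fills 74.0% to 92.2% of each blue bar and Bak1 28.5% to 54.2% of each orange bar, and the pro-death sums span 58.4 to 78.6 FPKM.

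Over the listed members the pro-death side was the steadier of the 2 sums. It ran from 62.8 to 78.6 FPKM in EpiSC, from 66.1 to 67.9 FPKM in EpiLC and from 58.4 to 59.2 FPKM in ESC, and was 71.4 FPKM in MEF, whereas the pro-survival sum ran from 89.7 to 199.6 FPKM over all libraries. With Bax added, a choice made after seeing the data, the pro-death sum ran from 105.1 to 204.6 FPKM. With the other family genes added it ran from 137.5 to 293.9 FPKM, so the steadiness holds for the listed members only. Among these, what differed was the make-up of the pro-death sum. Among the listed BH3-only members, Bcl2l11 was the most abundant in 4 of 5 EpiSC libraries, Bid in haEpi5 and in all EpiLC and ESC libraries, and Bad in MEF. Pmaip1, a BH3-only gene outside the list, was above each of them in every EpiSC library, at 25.4 to 36.3 FPKM. The same held in both EpiLC libraries and haploid ESC, but not in diploid ESC or MEF. Bcl2l11 made up 17.1% to 24.0% of the pro-death sum in EpiSC, 13.9% and 13.8% in p53-KO and wild-type EpiLC, 10.4% and 3.68% in haploid and diploid ESC, and 10.7% in MEF. The level of Bcl2l11 per unit of Mcl1 was 0.0930 to 0.171 in EpiSC, 0.0553 and 0.0566 in p53-KO and wild-type EpiLC, 0.0525 and 0.0145 in haploid and diploid ESC, and 0.102 in MEF. Every EpiSC library was above every EpiLC and ESC library in this ratio, which follows from the levels given above.

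No member passed the test for a difference by p53 label. These tests compare labels, and Cdkn1a, a known target of p53, did not separate them. It was at 19.4 and 28.2 FPKM in haEpi1 and haEpi5 and at 1.17 FPKM in diploid p53-KO EpiSC. In female and male wild-type EpiSC it was at 19.4 and 44.0 FPKM. For Bcl2, the haploid p53-KO EpiSC lines were at 0.945 and 1.03 FPKM and diploid p53-KO EpiSC at 1.08 FPKM, against 1.15 and 2.51 FPKM in the wild-type EpiSC libraries. The labels did not overlap, but the female wild-type library lay close above the 3 p53-KO libraries and the male library stood apart. The log2 fold change was -0.88 ± 0.469 for haploid p53-KO over wild-type diploid EpiSC (adjusted p = 0.9765, edgeR), in which p53 label and ploidy cannot be told apart. It was -0.75 ± 0.589 for diploid p53-KO over wild-type diploid EpiSC (adjusted p = 0.9999), and without male EpiSC the values were -0.22 and -0.08, and without female EpiSC -1.34 and -1.21. Bcl2l2 was at 4.56, 4.39 and 4.90 FPKM in the 3 p53-KO EpiSC libraries against 6.52 and 7.73 FPKM in the wild-type ones, again without overlap. It differed by -0.66 ± 0.287 for haploid p53-KO over wild type (adjusted p = 0.977, edgeR). With so few libraries a gene can separate the labels by chance, and the share of all genes that did so was not counted.

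Over all members, edgeR called 0 of 10 in haploid p53-KO over wild-type EpiSC, in diploid p53-KO over wild-type EpiSC and in haploid over diploid p53-KO EpiSC, beside 0.0% of 18153 genes in each. Unadjusted p was under 0.05 for 0 members, beside 3.53%, 3.86% and 5.55% of those genes. The fit over the 9 pluripotent libraries with cell type, p53 label and ploidy as terms also called 0 members for p53-KO over wild type and 0 for haploid over diploid, beside 0.0% of 18659 genes. There too 0 members had an unadjusted p under 0.05, beside 3.07% of genes for the p53 term and 4.72% for ploidy. DESeq2 and limma called 0 members in all of these, although DESeq2 called 22 to 268 genes in them overall. In that fit Bcl2 differed by -0.96 ± 0.516 for p53-KO over wild type and Bik by 0.65 ± 0.594, and Bcl2l11 differed by 0.58 ± 0.336 for haploid over diploid. The standard errors of the members ran from 0.216 to 0.594 for the p53 term, and a p above the threshold does not show equal levels.

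**Figure D4:**
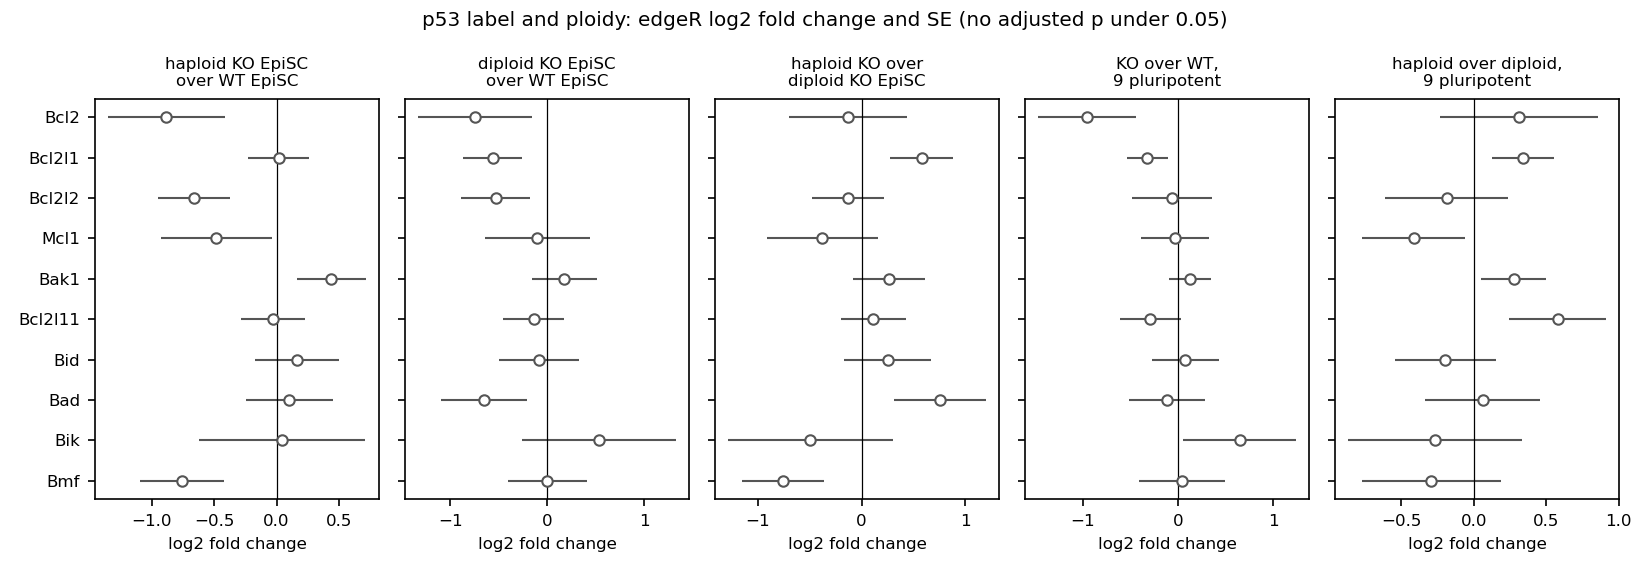
Log2 fold change (x axis, each panel with its own scale) of each member (rows) by p53 label and by ploidy, with bars of 1 SE from edgeR's quasi-likelihood test and open points for adjusted p of 0.05 or more. All points are open, the lowest being Bcl2 at -0.96 for p53-KO over wild type in the 9 pluripotent libraries.

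The p53 difference in diploid EpiSC was set against that in haploid EpiLC by an interaction term, which called 0 members, beside 0.0% of 20583 genes. Unadjusted p was under 0.05 for 1 member, beside 7.67% of genes. DESeq2 and limma on log2(FPKM + 1) called 334 and 164 genes in this comparison, 0 members among them. That member was Bcl2l2, at -1.60 ± 0.608 (adjusted p = 0.603). In the EpiLC pair itself, with 1 library a side and no test, Bcl2l2 was at 4.13 FPKM in the p53-KO library and 1.98 FPKM in the wild-type library, a log2 ratio of 1.07 (exact binomial 95% interval 0.78 to 1.38). Bik had 32 counts in p53-KO and 12 in wild-type EpiLC, a log2 ratio of 1.26 (0.38 to 2.47). These 2 members were past 2-fold, both higher, beside 24.4% of 15913 genes past 2-fold in either direction and 15.5% in that one. Bmf was at 0.89 (0.72 to 1.07) and the other 7 members were between -0.68 and 0.10. The naive marker sum differed between the same libraries, 215.9 FPKM in p53-KO and 29.1 FPKM in wild-type EpiLC, and its part in these differences was not tested.

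Haploid and diploid ESC, also 1 library each, had their widest difference among the members in Bcl2l11, at 6.16 FPKM in haploid and 2.15 FPKM in diploid ESC, a log2 ratio of 1.5 (exact binomial 95% interval 1.31 to 1.70). Bid was at 8.20 FPKM in haploid and 16.4 FPKM in diploid ESC, a log2 ratio of -1.01 (-1.16 to -0.86). Bcl2 had 9 counts in haploid and 2 in diploid ESC, a log2 ratio of 1.23 whose interval of -0.42 to 5.10 includes no difference. Of the 9 members with 20 or more counts over the pair, which leaves out Bcl2, 1 was past 2-fold and higher and 1 past 2-fold and lower, beside 28.3% of 17368 genes of that many counts in either direction, 18.0% higher and 10.3% lower. Bid lies at the 2-fold line, just under it with RLE size factors. The fibroblast marker sum was 1.75% of MEF in haploid and 0.0761% in diploid ESC. At that share the MEF level would give 0.133 FPKM of Bcl2l11 in haploid ESC, whose own level was 6.16 FPKM. What part fibroblast RNA had in the differences of this pair was not tested.

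Of the 13 other family genes 12 were tested between cell types, and Pmaip1 was the one called in most comparisons. Pmaip1, which encodes NOXA, a BH3-only partner of MCL1, was at 25.4, 33.8, 35.9, 36.3 and 28.0 FPKM in haEpi1, haEpi5, diploid p53-KO, female and male EpiSC, at 25.6 and 45.3 FPKM in p53-KO and wild-type EpiLC, at 10.4 and 6.55 FPKM in haploid and diploid ESC, and at 8.69 FPKM in MEF. All EpiSC and EpiLC libraries were above both ESC libraries and MEF. It rose by 1.96 ± 0.31 on the log2 scale in EpiSC over ESC (adjusted p = 0.00331), by 2.10 ± 0.344 in EpiLC over ESC (adjusted p = 0.0356) and by 1.95 ± 0.422 in EpiSC over MEF (adjusted p = 0.0141). By edgeR it was the only one of the 12 called in EpiSC over ESC and in EpiLC over ESC, beside 16.9% and 0.426% of all genes tested. The EpiLC over ESC call did not hold with wild-type libraries alone, where a single EpiLC library is left.

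Against MEF, Hrk, a BH3-only gene best known from neurons, rose in EpiSC (4.76 ± 1.13, adjusted p = 0.0211) and in ESC (4.32 ± 1.14, adjusted p = 0.0261). MEF held 3 Hrk counts, so the count ratios of 28.5 for EpiSC (exact binomial 95% interval 9.69 to 139) and 22.3 for ESC (7.49 to 109) are wide. Bcl2l14 had 255 and 156 counts in haploid and diploid ESC and 1 in MEF, a ratio of 178 (31.9 to 7070). The Bcl2a1 genes, pro-survival genes of blood cells that are near-identical copies and therefore uncertain one by one, had 12 to 49 counts each in MEF, 0 to 6 in EpiSC and 0 in both ESC libraries. By p53 label and ploidy, 0 of the 9 other family genes tested were called by edgeR or DESeq2 in any of the 6 comparisons, with 2 results at unadjusted p under 0.05 by edgeR. In those comparisons 3.07% to 7.67% of all genes tested were at unadjusted p under 0.05.

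Genes that act with the family were counted from 4 lists. Of 9 caspase and apoptosome genes 1 was higher in EpiSC than in ESC, beside 6.86% of all genes tested. It was Casp8, the initiator caspase that cleaves BID. Casp8 was at 8.59, 17.9, 9.18, 10.5 and 7.17 FPKM in haEpi1, haEpi5, diploid p53-KO, female and male EpiSC, at 1.63 and 0.532 FPKM in p53-KO and wild-type EpiLC, at 2.80 and 0.649 FPKM in haploid and diploid ESC, and at 17.0 FPKM in MEF. All EpiSC libraries were above all EpiLC and ESC libraries, by 2.69 ± 0.671 over ESC (adjusted p = 0.0237) and 3.32 ± 0.703 over EpiLC (adjusted p = 0.0194). Of 8 death receptor pathway genes 1 was higher in EpiSC than in ESC and EpiLC, beside 6.86% and 3.77% of all genes tested. It was Cflar, which encodes the caspase-8 inhibitor FLIP. Cflar was at 4.03, 3.03, 2.99, 3.47 and 2.93 FPKM in haEpi1, haEpi5, diploid p53-KO, female and male EpiSC, at 1.16 and 0.486 FPKM in p53-KO and wild-type EpiLC, at 1.10 and 0.465 FPKM in haploid and diploid ESC, and at 6.79 FPKM in MEF. EpiSC were again above every EpiLC and ESC library, by 2.13 ± 0.426 over ESC (adjusted p = 0.00948) and 2.01 ± 0.424 over EpiLC (adjusted p = 0.0188). For both Casp8 and Cflar, the call over EpiLC did not hold with wild-type libraries alone, where a single EpiLC library is left. The part of the fibroblast marker sums in these values was not tested, and haEpi5, the highest EpiSC library for Casp8, also had the highest sum at 2.83% of MEF.

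The genes of these lists called in EpiSC over MEF were all lower. They were 2 of 9 caspase genes, 2 of 8 death receptor pathway genes and 1 of 7 inhibitor of apoptosis genes and antagonists tested. Beside these, 1854 of all 21104 genes tested were lower. The called genes included the caspase gene Casp12 (-4.20 ± 1.09, adjusted p = 0.0296) and the inhibitor of apoptosis Birc3 (-1.83 ± 0.532, adjusted p = 0.0457). The death receptor pathway genes called were Tnfrsf1a (-2.26 ± 0.555, adjusted p = 0.0242) and Ripk1 (-1.65 ± 0.372, adjusted p = 0.0171). In ESC over MEF 2 of 9 caspase genes and 3 of 8 death receptor pathway genes were lower, beside 12.0% of all genes tested. Cflar (-3.09 ± 0.534, adjusted p = 0.00529) was 1 of these. Of 13 genes for partners and turnover of the family's proteins, Dynll2, the dock of BMF, was lower in EpiSC than in ESC (-0.85 ± 0.249, adjusted p = 0.0429). It was the only 1 called there, beside 2126 of 21104 genes lower. Vdac1, a channel of the outer mitochondrial membrane, was higher in ESC than in MEF (1.20 ± 0.329, adjusted p = 0.0299). Of 8 inhibitor of apoptosis genes and their antagonists 7 were tested, and Birc3 was the only one called in the 5 cell type comparisons.

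Genes whose pattern over the 10 libraries was most like that of Bcl2 and Bik, the pro-survival and pro-death members with the widest ranges, were found by Pearson correlation of log2 TMM-normalised counts over 15543 genes. For Bcl2, with a range of 6.64 log2 units, they were Basp1 (r = 0.9867), Rtl6 (r = 0.9859) and Rilpl1 (r = 0.9828). For Bik, with a range of 4.16 log2 units, they were Slc2a3 (r = 0.9689), Plet1 (r = 0.9689) and Rffl (r = 0.9663). These values describe 10 libraries that share cell types, and MEF was the 1 library in which Bik was nearly absent.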

How the data were processed

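Polyadenylated RNA of 10 libraries was sequenced after NEBNext Ultra library preparation, per the labels' protocols. The deposited counts are whole reads per gene for 54532 genes, made with HISAT2 2.0.5, featureCounts 1.5.0-p3 and mm10, according to the submitters' processing notes. FPKM were deposited too, and equalled counts over gene length and 1 constant per library (largest relative deviation 1.7e-08). No source used here gives a strand setting, so reads shared by Bak1 and Ggnbp1, Bid and Bcl2l13, or Bad and Gpr137, which overlap on opposite strands, cannot be told apart. Ggnbp1 had 27 to 201 counts, Bcl2l13 820 to 2036 and Gpr137 103 to 510. The design text of the series speaks of triplicates and names WT-EpiLCs without ploidy; 10 libraries were used here.

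The test on counts was that of edgeR 4.0.16 under R 4.3.3 (filterByExpr, TMM, quasi-likelihood F test, Benjamini-Hochberg adjustment over all genes tested, threshold 0.05). Cell types were compared in 1 fit of 10 libraries, with 1 mean per cell type and no p53 or ploidy term. An alternative to it added those terms. With them, EpiSC over ESC was 5.98 for Bcl2 (adjusted p = 0.00398) and 2.1 for Bcl2l11 (adjusted p = 0.0179). EpiSC groups were compared in a fit of 5. For p53 label and ploidy, an additive fit of 9 libraries had cell type as a term. The interaction had a mean for each group of those 9. A lone library was taken to have the spread of the other groups. Each standard error came from the fold change and the F statistic. DESeq2 1.42.0 and limma 3.58.1, on log2(FPKM + 1) with at least 1 FPKM, were alternatives, beside other size factors, no filter, a pseudocount of 0.1, wild-type libraries alone and leaving out each library. All 10 members passed the low-count filter in every fit. Pairs of single libraries are log2 ratios of TMM-normalised counts with a prior count of 2 and no test, over genes of 20 or more counts. Ratios carry exact (Clopper-Pearson) binomial 95% intervals, which cover counting error only. The scripts were tested on simulated data. Over the 45 pairs of libraries, chi-square per degree of freedom was at least 34.78, so no library was counted as a repeat of another.

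Members, gene lists and tests were chosen with earlier results of these data known. All 10 members are named. From each of the 4 pathway lists up to 3 genes per comparison past the threshold with the largest change could be named (1 such gene is not reported here), and likewise any other family gene and Trp53, Cdkn1a and Mdm2. The 3 protein-coding genes most like Bcl2 and Bik were those with the highest correlation. Promoter windows are from RefSeq, and 9 of 10 members were matched, Bik not being among them.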

Additional observations from a re-analysis of the deposited data

Results flagged for a closer look

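Bcl2 in male EpiSC stood at 2.51 FPKM, against 0.945 to 1.15 FPKM in the other 4 EpiSC libraries, a gap beyond Dixon's 95% critical value of 0.71 for 5 samples. Chance flags about 1 in 20 such groups of like libraries, and a screen over several genes makes a flag by chance more likely. These 5 libraries also differed in p53 label and ploidy. The same library was also the highest EpiSC library for Mcl1, Bcl2l2, Bcl2l11 and Bmf and the lowest for Bak1, and its Trp53 level of 47.4 FPKM was the highest of the EpiSC libraries.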

How the results depend on the processing

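EpiSC against ESC gave 2 members past the threshold under every alternative except wild-type libraries alone, which gave 0, with Bcl2 at 5.86 (adjusted p = 0.0745) and Bcl2l11 at 1.82 (adjusted p = 0.185). Of 20636 genes, wild-type libraries alone gave 32 higher and 38 lower there, against 16.9% of genes called in the main fit. Most genes thus lost their call, not the members alone. Fewer genes were also called in the other cell type comparisons, where EpiLC or MEF had a single library. With wild-type libraries alone EpiSC against EpiLC gave 0, EpiSC against MEF 0 and ESC against MEF 1. EpiSC against EpiLC also gave 0 with limma on log2(FPKM + 1) without a filter, where EpiSC against MEF gave 1 that was Bad (adjusted p = 0.0369) in place of Bik, and ESC against MEF lost Bik and gained Bad (adjusted p = 0.0476). EpiSC against MEF gave 2, with Bad added, under DESeq2, edgeR with RLE size factors, and limma with a pseudocount of 1 or 0.1. Without both haploid p53-KO EpiSC libraries, an alternative chosen after seeing the data, EpiSC against EpiLC gave 0 (Bcl2 at 3.45, adjusted p = 0.0538) and EpiSC against MEF 0 (Bik at 5.09, adjusted p = 0.0562). Leaving out 1 library at a time gave 2 to 2 for EpiSC against ESC, 0 to 1 for EpiLC against ESC, 0 to 2 for EpiSC against EpiLC, 1 to 3 for EpiSC against MEF and 2 to 4 for ESC against MEF. Without haploid ESC the last was 4, with Bid at 1.63 (adjusted p = 0.0297), and EpiSC against MEF was 3 without either ESC library, with Bad at -1.28 and -1.26. The p53, ploidy and interaction comparisons gave 0 throughout. Members past 2-fold in haploid over diploid ESC were 1 with RLE size factors, against 2. No log2 fold change followed under the alternatives changed sign.

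The log2 balance difference of EpiSC minus ESC was 0.412 as a mean of log2(FPKM + 0.1), a reversal, and -0.0112 without Mcl1. That of EpiLC minus ESC was reversed at -0.27 as a mean of log2(FPKM + 1) and at -0.52 without Mcl1. Without 1 library at a time these ranged from -0.68 to -0.36 and from -0.07 to 0.22, and p53-KO minus wild-type EpiSC, -0.30 over all libraries, from -0.83 to 0.22. No paired analysis was possible because the labels give no replicate numbers that pair libraries across groups. Depth limits Bcl2 in ESC, at 9 and 2 counts, and Bik in MEF, at 1.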

Other observations

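Bbc3, which encodes PUMA, and Bax, both known targets of p53, were not among the 10 members. Ordered by the level of Trp53, diploid ESC, wild-type EpiLC, male EpiSC and MEF came first, at 93.4, 87.4, 47.4 and 33.0 FPKM of Trp53, and the other 6 libraries were at 0.514 to 14.8 FPKM. The first 4 held 16.8, 28.6, 41.9 and 15.2 FPKM of Bbc3, and the other 6 held 3.08 to 7.33 FPKM. Bax was at 130.2, 138, 84.0 and 66.6 FPKM in the first 4 and at 41.1 to 69.8 FPKM in the others, so that haEpi5 was above MEF. The female wild-type EpiSC and haploid ESC libraries, both labelled wild type, were among the 6 with low Trp53. Pmaip1 and Mdm2, known targets as well, did not follow the Trp53 order. Pmaip1 was at 6.55, 45.3, 28.0 and 8.69 FPKM in the first 4 libraries and at 10.4 to 36.3 FPKM in the others. Mdm2 was at 33.9, 41.3, 38.0 and 16.5 FPKM in the first 4 and at 14.9 to 34.9 FPKM in the others, with haEpi5 above diploid ESC. These values describe 10 libraries without a test.

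Cdkn1a, another known target of p53, was at 1.17 FPKM in diploid p53-KO EpiSC and 3.33 FPKM in p53-KO EpiLC, and at 19.4 to 61.0 FPKM in the other 8 libraries, haEpi1 (19.4 FPKM) and haEpi5 (28.2 FPKM) included. In diploid ESC, wild-type EpiLC, male EpiSC and MEF, the libraries with the most Trp53, it was at 61.0, 32.5, 44.0 and 46.2 FPKM. The remaining libraries were at 1.17 to 29.0 FPKM.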
